A study of Mus musculus with 13 samples.

Results

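Cytosolic ribosomal protein genes encode the proteins of the ribosome outside mitochondria. They were taken from the deposited count table by name, as symbols that start with Rpl or Rps and a digit, together with Rpsa, Rplp0, Rplp1 and Rplp2. Of 391 such symbols, 301 were set aside by name, among them 289 pseudogene symbols and 9 symbols of the Rps6k kinases. A further 10 with a mean count under 10 were also left out. The remaining 80 genes, of 56980 in the table, are described here: 47 of the large (60S) and 33 of the small (40S) subunit. The 10 genes under the minimum include the tissue-restricted paralogs Rpl3l, Rpl10l and Rpl39l, with mean counts of 2.38, 0 and 0.154, and Rpl36al, with 4.54.

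The study deleted Lpcat3, an enzyme that places arachidonic acid into phospholipids, and asked how this affects microglia facing amyloid. Bulk RNA-seq was made from hippocampus of male mice at 9 months of age. All mice carried App NL-G-F, a knock-in allele of the amyloid precursor protein gene, and both groups had floxed Lpcat3 alleles (Lpcat3 f/f). The 7 knockout libraries also carried vav1-Cre, and the 6 control libraries, which the labels call WT for Lpcat3, did not. Vav1 drives Cre in the blood cell lineage, so neurons and most glia of a knockout hippocampus are not its target. All 13 samples carry a treatment label of tamoxifen by gavage, 20 mg/ml at 0.2 mg per g of body weight. Whether this drove the deletion is not in the labels. Nor do they state that each library is 1 animal, and p-values cover only the spread among these 13. Sample numbers in the labels fall into runs of 3283 to 3288 (5 knockout, 1 control), 3296 to 3300 (1 knockout, 3 control) and 4301 to 4307 (1 knockout, 2 control), and what a run stands for is not given.

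Each ribosome needs about equal amounts of its proteins, and cells make them from genes scattered over nearly all chromosomes. Their mRNAs are short, abundant and begin with a stretch of pyrimidines, the terminal oligopyrimidine (TOP) tract, through which mTORC1 and the RNA-binding protein Larp1 set their translation. Ribosomal proteins made in excess are degraded, and free Rpl5 and Rpl11 can hold back Mdm2, the ligase that marks p53 for degradation. In brain, ribosomes are found in cell bodies and also in dendrites and axons, where they serve local protein synthesis.

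Library totals ran from 12159941 to 18322559 counts. Lpcat3 lay between 24.7 and 30.3 CPM (counts scaled to the size of the library) in the controls and between 17.3 and 24.4 CPM in the knockouts. The 2 groups did not overlap and differed by -0.45 on the log2 scale, which did not pass at an adjusted p of 0.0962 (SE 0.088, edgeR's quasi-likelihood test). All 14 markers of hippocampal excitatory neurons were counted in every library. Summed markers of choroid plexus epithelium, a tissue next to the hippocampus, varied from 67.5 to 3214 CPM between libraries.

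Divided by transcript length, the 80 genes covered a 114.5-fold range of mean levels over the 13 libraries, although most lay close together. The highest mean levels were those of Rpl3, a core protein of the large subunit beside the catalytic centre (133.8 CPM per kb), and of Rpl4, which lines the tunnel through which the new chain leaves (133.4 CPM per kb). Rpl13 followed at 108.6, Rpl41, the shortest of these proteins, at 86.2, and Rps14, a protein of the platform of the small subunit, at 84.3 CPM per kb. Rpl3 and Rpl4 lay within the spread of each other. The order depends on the length used: per kb of coding sequence Rpl41 came first at 502.1 CPM, followed by Rpl4 at 163.2 and Rpl3 at 149.5.

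The lowest levels were those of Rpl37rt (1.17 CPM per kb), Rpl24 (1.38), Rps10 (3.39), Rpl13a (4.56) and Rps20 (5.49). The annotation of several of these bears on how they could be counted. In GENCODE M21, 91.6% of the Rps10 transcript, 71.5% of the Rpl24 transcript and 59.3% of the Rpl13a transcript lie inside exons of another gene on the same strand, namely the read-through gene RPS10-NUDT3, Gm28037 and Gm45713. Those genes had a mean count of 0. No other ribosomal protein gene had over 50% of its bases inside another gene, and 76 had none. Rpl37rt is annotated as a transcribed pseudogene, as is Rps4l (11.0 CPM per kb). The Rps20 model is 3706 bases long, and per kb of coding sequence its level was 57.0 CPM, rank 49 of the genes. Low levels of Rps10, Rpl24 and Rpl13a therefore cannot be read as little mRNA, since the treatment of reads that fall in overlapping genes is not given in the sources used here. Rpl37rt and Rps20 have no such overlap. Their levels are uncertain as well, since Rpl37rt shares sequence with Rpl37 and the level of Rps20 depends on the length used.

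**Figure D1:**
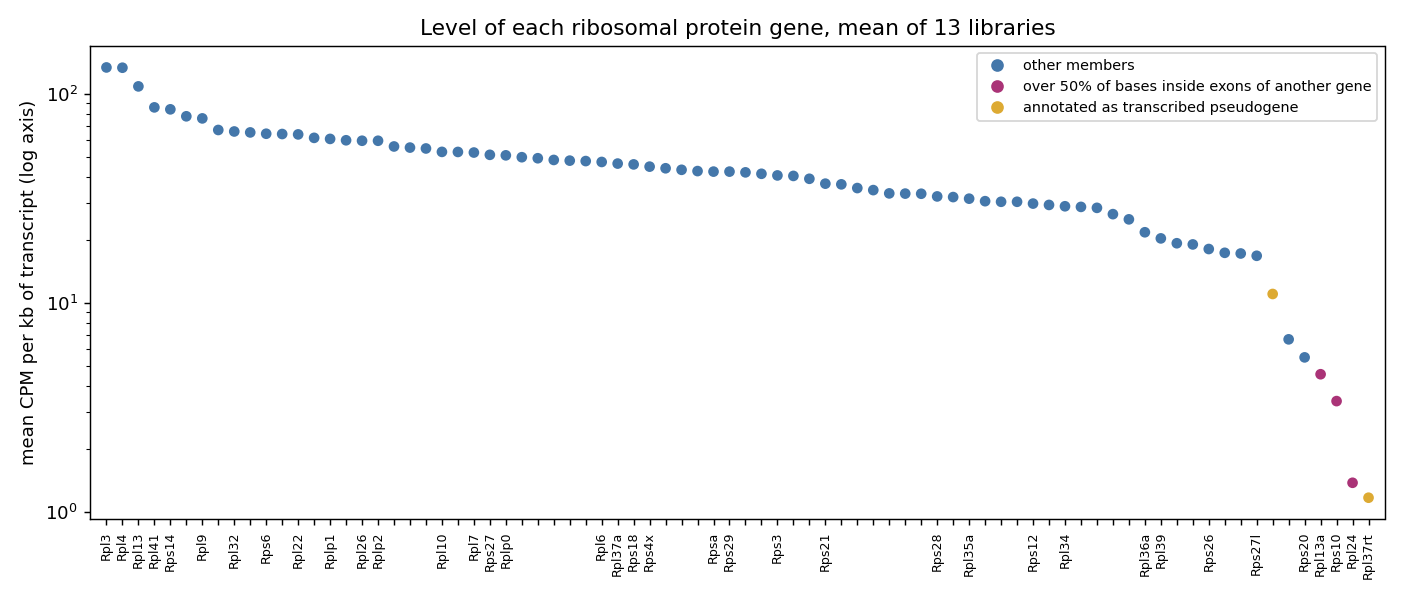
Mean level of each ribosomal protein gene over 13 libraries (log axis, CPM per kb of transcript), ordered from high to low, with names under the genes of the naming rule. Rpl3 and Rpl4 lie at the top, and 3 genes with over 50% of their bases inside exons of another gene lie at the lower end with Rpl37rt.

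Sequence at the gene starts was read from RefSeq promoter windows (mouse build GRCm38.p6), which hold 59 of the 80 genes. A tract of C followed by at least 4 further C or T, starting at the RefSeq start itself, was present in 13 of the 59 genes (22.0%), against 3.01% of 27025 genes. The genes below are those named elsewhere in the text that have this tract, followed by Rplp0 and Rpl41, which do not. Each line gives the transcribed strand from 20 bases before the start to 20 bases from it, and capitals mark the run of C and T that begins at the start.
Rps6: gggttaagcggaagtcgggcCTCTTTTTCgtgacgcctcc
Rplp2: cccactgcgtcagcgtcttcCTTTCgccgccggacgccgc
Rps10: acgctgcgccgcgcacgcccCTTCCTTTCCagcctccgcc
Rps18: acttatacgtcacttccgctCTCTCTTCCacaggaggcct
Rps21: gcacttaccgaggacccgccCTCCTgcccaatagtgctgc
Rps27: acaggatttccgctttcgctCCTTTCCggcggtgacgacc
Rpl35a: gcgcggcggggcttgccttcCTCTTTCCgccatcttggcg
Rplp0: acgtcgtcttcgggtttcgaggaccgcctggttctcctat
Rpl41: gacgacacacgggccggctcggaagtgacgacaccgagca

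These windows lie at chr4:86857348-86857387 on the minus strand for Rps6, at chr7:141447631-141447670 on the plus strand for Rplp2, and at chr17:27635225-27635264 on the minus strand for Rps10. Rps18 is at chr17:33955646-33955685 on the minus strand, Rps21 at chr2:180257359-180257398 on the plus strand, and Rps27 at chr3:90213629-90213668 on the minus strand. Rpl35a is at chr16:33056462-33056501 on the plus strand, Rplp0 at chr5:115559447-115559486 on the plus strand, and Rpl41 at chr10:128549149-128549188 on the minus strand. A RefSeq start need not be the base at which transcription begins, and a C with at least 6 further C or T was found within 50 bases of the start in 84.7% of the ribosomal protein genes and 44.5% of all genes.

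Of the short motifs searched near the start, most were present in a larger share of these genes than of all promoters of the same length. CTTTC on the transcribed strand, within 50 bases of the start, was present in 52.5% of the 59 genes and 14.6% of all genes, and CTTCC in 45.8% and 22.2%. The longer CTCTTTC, which contains CTTTC, was present in 20.3% and 1.62%. CCGGAAG, the core bound by ETS factors, was present on either strand of the 300 bases in 42.4% and 9.93%. GGGCGG, the core of GC boxes, was present in 61.0% and 38.2%. Other motifs were present at a share near that of all genes: TATAAA, within 50 bases on the transcribed strand, in 6.78% (4 genes) and 4.05%, and CAAGATGGC, on either strand of the 300 bases, in 1.69% (1 gene) and 1.42%. The median log2 fold change between knockout and control was -0.13 for genes with the tract at the start and -0.18 for those without.

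In the knockout libraries most ribosomal protein genes had slightly lower estimates than in the controls, and none passed the test. The log2 fold change was below 0 for 78 of 80 genes, against 51.3% of the 17549 genes tested. The median was -0.17, against -0.004 over all genes. No gene passed an adjusted p of 0.05 by edgeR's quasi-likelihood test (background 0.0228%), and none passed by DESeq2, which gave no adjusted p for 5 of them and a smallest value of 0.0528 among the rest (background 1.76%). At an unadjusted p under 0.05, 29 were lower (background 7.25%) and 0 were higher (background 5.23%). By the exact two-sided permutation test, 15 were lower at a p under 0.05 (background 6.72%). The ranges of the groups overlapped for all 80 genes (0.274% of all genes were lower with no overlap). In a bulk tissue, fewer cells with many ribosomes and less of these mRNAs per cell cannot be told apart.

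These counts depend on the 4 libraries numbered 3296 to 3300. Without them, a setting added after seeing the data, the median was -0.007, 42 of 80 genes were below 0 (background 49.8%), 6 were lower at an unadjusted p under 0.05 (background 5.23%) and 2 were higher (background 4.59%). Leaving out samples 3283 to 3288 left 16 lower (background 5.29%), and leaving out samples 4301 to 4307 gave 52 (background 7.37%). Leaving out control replicate 2 alone left 8 (background 5.68%), control replicate 4 left 11 (5.52%), knockout replicate 3 left 17 (6.64%) and knockout replicate 2 left 19 (6.05%). Leaving out knockout replicate 4 gave 50 (background 7.24%), and control replicate 5 gave 43 (6.66%).

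**Figure D2:**
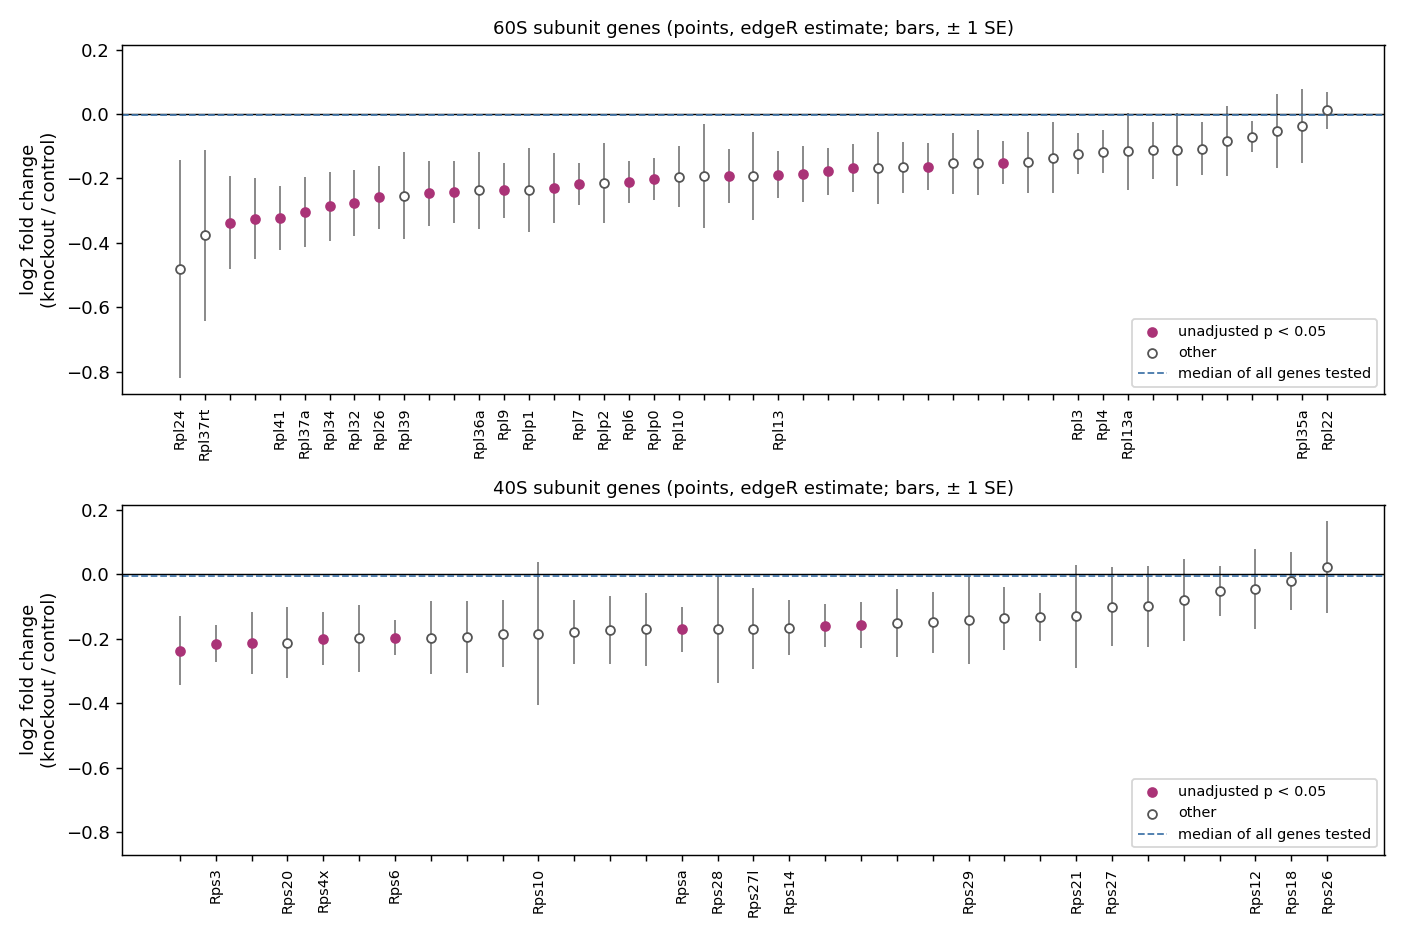
Log2 fold change (knockout over control) of each gene, with bars of 1 SE and names under the genes of the naming rule, for the 60S subunit (top) and the 40S subunit (bottom). Filled points have an unadjusted p under 0.05, and 78 of 80 points lie below 0, with Rpl22 and Rps26 the exceptions.

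The libraries show where the difference lies. Taking for each library the median over the 80 genes of the log2 difference from the control mean, the controls numbered 3296, 3297 and 3298 were at 0.241, 0.048 and 0.161. The control of the first run was at -0.068, and the controls numbered 4306 and 4307 were at -0.216 and -0.202. The knockouts were at -0.297 to -0.175, except knockout replicate 4 at 0.105. So 3 controls and 1 knockout were high, and the controls of the last run were as low as the knockouts.

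Of the 80 genes, 44 had their highest level in control replicate 2, 17 in control replicate 4 and 9 in knockout replicate 4. The lowest level was in knockout replicate 3 for 24 genes, in knockout replicate 7 for 13, and in control replicates 5 and 6 for 11 each. These counts describe the 80 genes only, since the shares over all genes were not computed. As a share of all counts the genes took 0.275% to 0.345% in the controls and 0.249% to 0.307% in the knockouts. Their summed level was 3004 ± 286 CPM in controls (SD, n = 6) and 2674 ± 208 CPM in knockouts (SD, n = 7), 11.0% lower, and the ranges of 2716 to 3410 and 2466 to 3112 CPM overlapped.

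Within the runs of sample numbers the differences were of unequal size. The median log2 difference between knockout and control over the 80 genes was -0.078 in the run 3283 to 3288 (60 genes below 0, background 52.8%), where there is 1 control. It was -0.32 in the run 3296 to 3300 (75 genes, background 49.7%), where there is 1 knockout. In the run 4301 to 4307, also with 1 knockout, it was -0.05 (47 genes, background 50.4%). In all 3 runs the difference was below 0 for 30 genes, a count for which the share over all genes was not computed. With the run as a term in the edgeR fit, the median was -0.14 and 16 genes were lower at an unadjusted p under 0.05 (background 4.54%). With so few libraries of one group in each run, run and genotype can be told apart only in part.

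Markers of other cell types also varied between the libraries. Summed markers of inhibitory neurons were 881 to 1034 CPM in the controls numbered 3296 to 3298 and 734 to 832 CPM in the other 10 libraries, and all 10 such markers were counted in every library. Choroid plexus markers were 86.1 to 1948 CPM in controls and 67.5 to 3214 CPM in knockouts. The 6 libraries at 67.5 to 150.8 CPM included control replicates 3 and 4 and knockout replicate 4, which were high in ribosomal protein genes, and knockout replicates 2, 6 and 7, which were low. Plaque-associated microglial markers were 1622 to 2070 CPM in controls and 1437 to 1697 CPM in knockouts, with 10 of 15 lower at an unadjusted p under 0.05 (background 7.25%). They were highest in the controls numbered 4306 and 4307, at 2048 and 2070 CPM, where ribosomal protein levels were low.

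Striatal and septal markers were 153 to 212 CPM in controls and 126 to 189 CPM in knockouts, with 6 of 10 lower (background 7.25%). Among the knockouts they were highest in replicate 3, at 189 CPM, which had the lowest ribosomal protein level, and were at 134.8 CPM in replicate 4, which had the highest. Control replicates 2 and 4, the highest of all libraries in these markers at 211.8 and 197.2 CPM, were also the highest in ribosomal protein genes. Control replicate 3, also high in ribosomal protein genes, was the lowest control at 152.8 CPM. Of the 14 excitatory neuron markers, 4 were higher and 1 was lower (background 5.23% and 7.25%), with a median log2 fold change of 0.091. The mitochondrial share of counts was 1.64% to 1.94% in controls and 1.45% to 1.73% in knockouts. It was highest in control replicates 2 and 4, at 1.94% and 1.87%, and among the knockouts in replicate 4. Control replicate 3, high in ribosomal protein genes, had the lowest share of the controls, and the controls numbered 4306 and 4307 had 1.761% and 1.735%. The part of the cell markers and of the mitochondrial share in the ribosomal protein difference was not tested.

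**Figure D3:**
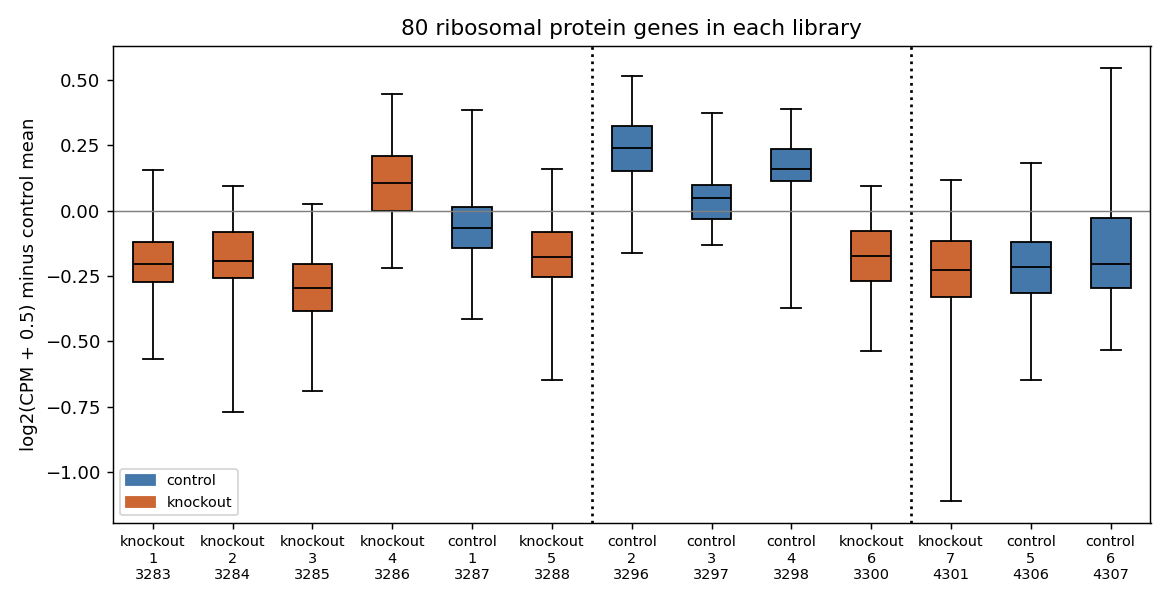
Log2 difference of the 80 ribosomal protein genes from the control mean in each library, ordered by sample number, with dotted lines between runs. Boxes span the quartiles with the median as a line and whiskers reach the extremes; controls 2 to 4 and knockout 4 have medians above 0 and the other 9 libraries below.

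Among the 40S genes, 32 of 33 had a log2 fold change below 0 (background 51.3%), with a median of -0.17. At an unadjusted p under 0.05, 8 were lower (background 7.25%). Rps3, which sits at the mRNA entry channel and also acts in DNA repair, had the smallest p of all. Its controls ran from 77.9 to 93.4 CPM with a median of 81.6, and its knockouts from 66.8 to 82.2 CPM with a median of 72.1. Knockout replicate 4 alone lay within the control range. The log2 fold change was -0.22 (SE 0.058, adjusted p = 0.161 by edgeR's quasi-likelihood test), and the exact two-sided permutation p was 0.00466. Rps3 was below 0 in each run, at -0.10, -0.28 and -0.21, and at -0.13 without the run 3296 to 3300.

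Rps6 is the protein of the small subunit that S6 kinase phosphorylates downstream of mTORC1. Its controls had 56.9 CPM at the lowest, 60.5 at the median and 66.0 at the highest, and its knockouts 49.2, 53.3 and 57.5 CPM. The groups met only at the edge, since 6 of 7 knockouts lay below every control. The log2 fold change was -0.20 (SE 0.055, adjusted p = 0.166 by edgeR's quasi-likelihood test), and it was -0.16, -0.10 and -0.14 within the runs. Without the run 3296 to 3300 it was -0.18, nearly the same.

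Rpsa, also known as the laminin receptor, was at 59.7, 76.3 and 77.7 CPM in controls (lowest, median, highest) and at 58.2, 62.6 and 71.7 CPM in knockouts, a log2 fold change of -0.17 (SE 0.070). The X-linked Rps4x was at 42.0 to 55.2 CPM in controls and 34.1 to 50.1 CPM in knockouts (-0.20, SE 0.082). In Rpsa every knockout and in Rps4x 6 of 7 lay below the control median, the ranges overlapped, and both were lower at an unadjusted p under 0.05. With the run as a term the estimates were -0.051 for Rpsa (unadjusted edgeR p of 0.474) and -0.13 for Rps4x (0.183). The differences within the runs were 0.054, -0.033 and -0.20 for Rpsa. Rps27 and Rps27l, a pair of zinc-finger proteins of which Rps27l is a p53 target, had log2 fold changes of -0.10 and -0.17 with SEs of 0.12 and 0.13. Rps29 (-0.14), Rps28 (-0.17), Rps21 (-0.13), Rps12 (-0.046) and Rps18 (-0.020) all had SEs of 0.090 or more, and all 5 had positive estimates without the run 3296 to 3300.

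Rps26, a protein of the mRNA exit channel, was at 8.15, 12.6 and 15.6 CPM in controls (lowest, median, highest) and at 10.6, 11.7 and 16.4 CPM in knockouts, and its log2 fold change of 0.023 (SE 0.14) was the most positive. The controls numbered 4306 and 4307 were its lowest libraries. Without the run 3296 to 3300 it was 0.39 (adjusted p = 0.438 by edgeR's quasi-likelihood test), and it was one of the 2 higher genes in that setting.

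Among the 60S genes, 46 of 47 had a log2 fold change below 0 (background 51.3%), with a median of -0.19. At an unadjusted p under 0.05, 21 were lower (background 7.25%). Rplp0 anchors the P stalk, the arm that recruits elongation factors, and carries the dimers of Rplp1 and Rplp2. Its levels were 61.7, 76.1 and 80.5 CPM in controls (lowest, median, highest) and 57.6, 63.3 and 71.1 CPM in knockouts, so every knockout was below the control median while the ranges overlapped. The log2 fold change was -0.20 (SE 0.066, adjusted p = 0.229 by edgeR's quasi-likelihood test), and -0.20 also without the run 3296 to 3300. Within the runs it was 0.023, -0.082 and -0.25, and with the run as a term it was -0.093 (unadjusted edgeR p of 0.182). With trends on length and GC content removed it was -0.11. Rplp1 and Rplp2 had estimates of -0.24 and -0.22 with SEs of 0.13 and 0.12, and without that run of 0.12 and 0.045. Rpl12, at the base of the stalk, was at -0.15 over all libraries and 0.026 without that run.

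Rpl41 had 33.0, 41.4 and 52.8 CPM in controls (lowest, median, highest) and 30.6, 32.3 and 40.4 CPM in knockouts. The high values came from the controls numbered 3296 to 3298, at or above 44.7 CPM, and the controls of the last run lay inside the knockout range. The log2 fold change was -0.32 (SE 0.10, adjusted p = 0.211 by edgeR's quasi-likelihood test), with -0.17, -0.59 and 0.005 within the runs. It was -0.055 without the run 3296 to 3300. Rpl37a (-0.30), Rpl9 (-0.24), Rpl32 (-0.28), Rpl34 (-0.29), Rpl26 (-0.26) and Rpl13 (-0.19) had unadjusted edgeR p-values of 0.0117 to 0.0178 over all libraries and estimates of -0.13 to -0.018 without that run. The controls of the last run lay inside the knockout range for these genes except Rpl34, where control replicate 5, at 14.7 CPM, was above every knockout (10.9 to 13.6 CPM).

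Rpl7 and Rpl6, which bind the RNA of the large subunit, had narrower ranges. Rpl7 was at 58.9, 65.6 and 72.7 CPM in controls (lowest, median, highest) and 51.0, 57.0 and 62.4 CPM in knockouts. The log2 fold changes were -0.22 for Rpl7 and -0.21 for Rpl6 (both SE 0.064, adjusted p = 0.198 by edgeR's quasi-likelihood test), and -0.17 and -0.14 without the run 3296 to 3300. With the run as a term they were -0.18 and -0.13, the latter with an unadjusted edgeR p of 0.0890. Every knockout was below the control median for both.

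The most abundant genes, Rpl3 and Rpl4, had a different pattern over the runs. Rpl3 was at 171, 185 and 212 CPM in controls (lowest, median, highest) and 155, 172 and 199 CPM in knockouts, with a log2 fold change of -0.12 (SE 0.063). Rpl4 was at 185, 208 and 242 CPM and at 185, 188 and 228 CPM, with -0.12 (SE 0.066). Both ranges overlapped widely, and both genes were highest in control replicate 6, a library where most other members were low. In the run 3296 to 3300 the single knockout was above the mean of the controls, by 0.13 and 0.15, and without that run the estimates were -0.20 and -0.21. In that setting Rpl3, Rpl4, Rpl7, Rplp0, Rps6 and Rps4l were the 6 lower genes. Of these, Rps4l is annotated as a transcribed pseudogene.

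Rpl22, an RNA-binding protein of the large subunit, stood at 26.9, 30.5 and 32.0 CPM in controls (lowest, median, highest) and 28.4, 30.8 and 32.4 CPM in knockouts, with a log2 fold change of 0.011 (SE 0.057). It varied little between libraries, with an SD of 0.078 on the log2 scale within groups, where the median gene had 0.197. The largest SDs were those of Rpl24 (0.43), which had 3 to 24 counts a library, Rps28 (0.33) and Rps21 (0.33). The X-linked genes Rpl10, Rpl36a and Rpl39 had estimates of -0.20, -0.24 and -0.25, none with an unadjusted edgeR p under 0.05, and Rpl35a had -0.038.

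**Figure D4:**
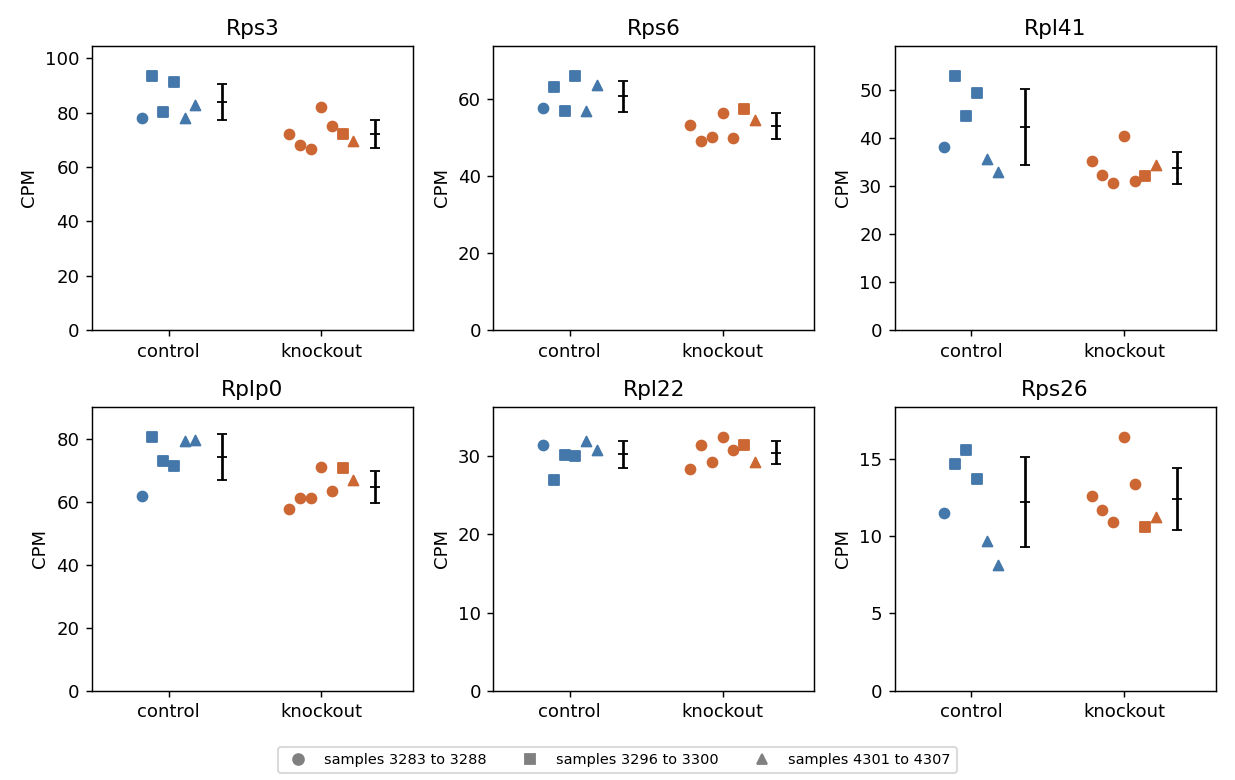
CPM of 6 genes in each library (points, with symbols for the run of sample numbers) with group mean and SD (bars). Rps3, Rps6, Rpl41 and Rplp0 have lower knockout means with overlapping ranges, and Rpl22 and Rps26 have means that differ by less than the SD.

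Grouped by role, the estimates differed little, and the counts that follow stand against 51.3% of all genes below 0 and 7.25% lower. The 8 genes of the exit tunnel and its rim were all below 0, with a median of -0.15, and 2 of them, Rpl19 and Rpl26, were lower at an unadjusted p under 0.05. Rpl5 and Rpl11, which bind the 5S RNA and Mdm2, were at -0.15 and -0.24, and both were lower at that level. Of 10 genes mutated in Diamond-Blackfan anaemia, an inherited failure of red cell production, 9 were below 0 and 3 were lower (Rpl5, Rpl11 and Rpl26). Of 5 genes in common use as references for quantitative PCR, all were below 0 and 3 were lower (Rplp0, Rpl19 and Rpl32), while Rps18 was at -0.020 and Rpl13a at -0.12. The ubiquitin fusion gene Rps27a was at -0.21 (SE 0.096) and lower at that level. Its estimate changed sign, to 0.044, without samples 3296 to 3300. Of the genes named here as lower, only Rplp0 was also lower at that level in that setting. Rpl19 was then at -0.061, Rpl26 at -0.067, Rpl5 at -0.147, Rpl11 at -0.053 and Rpl32 at -0.018.

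Ribosomal protein mRNAs are short, and short genes in general were lower in the knockouts. All genes with a length were split into 5 equal classes by transcript length, and 74 of the 80 genes were in the shortest class (59 to 1481 bases). The other 3382 genes of that class had a median log2 fold change of -0.12, with 72.6% below 0 and 18.3% lower at an unadjusted p under 0.05. The 4 other classes had medians of -0.008 to 0.027. In another setting, trends on GC content and on length, here that of all exons of a gene combined, were removed from each library. The ribosomal protein median was then -0.11, and 70 of 80 were below 0 (background 48.9%). At an unadjusted p under 0.05, 12 were lower (background 5.7%). The other 3382 genes of the shortest class had a median of -0.04 in that setting, with 60.3% below 0 and 9.34% lower. Part of the shift of that class thus remained. The class was set by transcript length, which is not the length whose trend was removed. How far a trend on transcript length itself accounts for the remainder was not tested.

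The shift of short genes and that of ribosomal protein genes coincided in part over the libraries. Genes of the shortest class had median differences from the control mean of -0.133 to -0.046 in the knockouts and of -0.054 to 0.050 in the controls. Control replicate 2 was the highest of all libraries in both measures, and knockout replicate 4 the highest of the knockouts in both. The controls numbered 4306 and 4307, low in ribosomal protein genes, were at 0.005 and 0.044 for short genes. Without the run 3296 to 3300, the short genes other than ribosomal protein genes stayed at a median of -0.10, while the ribosomal protein genes were at -0.007. Among the 80 genes themselves, split into 3 classes by length, the shortest, middle and longest had medians of -0.19, -0.17 and -0.17.

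**Figure D5:**
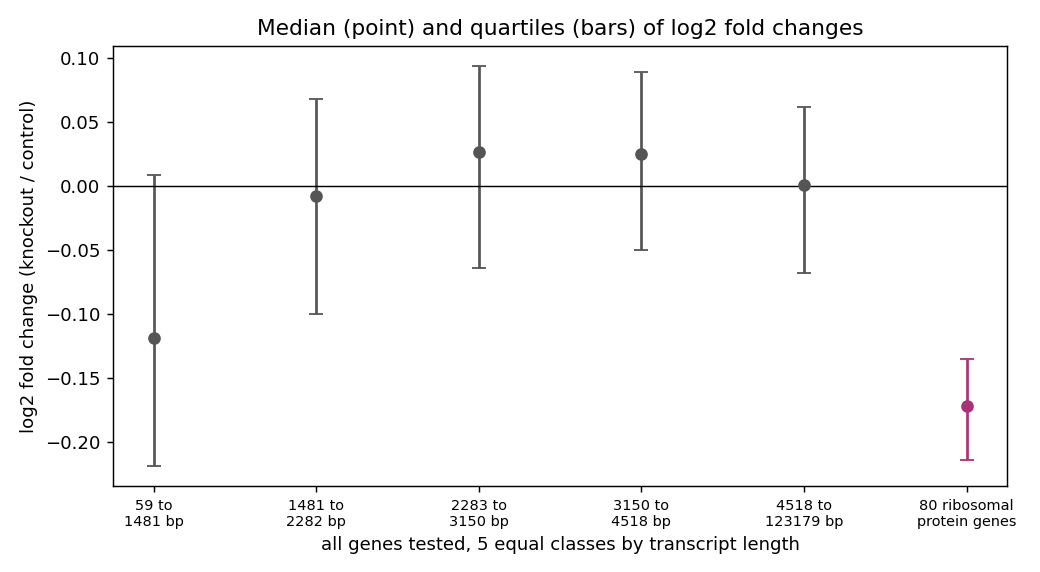
Median (point) and quartiles (bars) of the log2 fold change for all genes tested, in 5 equal classes by transcript length, and for the 80 ribosomal protein genes. The shortest class has a median of -0.12 and the ribosomal protein genes one of -0.17, with the 4 other classes near 0.

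Many ribosomal protein genes have processed pseudogenes that share their sequence, so reads can be split or lost depending on how multimapped reads were treated, which is not given in the sources used here. The share of 50-base stretches of the transcript that also occur in a transcript of another gene had a median of 54.5% and ran from 0% to 98.7%, the highest being that of Rps27, whose copy Rps27rt had a mean count of 8.08. It was 2.96% for Rps3, 84.6% for Rps6, 41.8% for Rplp0 and 53.1% for Rpl41. The median log2 fold change was -0.17 in the 27 most shared, -0.19 in the 27 intermediate and -0.17 in the 26 least shared genes. Levels of the shared genes are uncertain. Counts of the symbols marked as pseudogenes by -ps together came to 1.48% to 1.67% of those of the 80 genes. Genes under other names that share such stretches are not in that share. Of these, Gm10076 had a mean count of 68.3 (Rpl41 551.6), Wdr89 87.0 (Rplp2 368.7) and Gm8130 2.31 (Rps3 1139). Each shares the most stretches with the gene in brackets, and its counts can also come from sequence that is not shared.

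Other genes of translation were read from lists drawn up by function, and no gene of any list passed an adjusted p of 0.05 by edgeR's quasi-likelihood test (DESeq2 called 2 to 3 genes in 4 of the lists). Mitochondrial ribosomal proteins, which build the separate ribosome of mitochondria, had 69 of 77 below 0, with 24 lower and 1 higher at an unadjusted p under 0.05 (background 7.25% and 5.23%) and a median of -0.12. Nuclear genes of oxidative phosphorylation, also short, had 78 of 80 below 0, 25 lower, 0 higher and a median of -0.15. Without the run 3296 to 3300 the medians were -0.088 and -0.001, with 8 and 11 genes lower (background 5.23%). Examples are Mrpl17 at -0.23 and Sdhb, a subunit of succinate dehydrogenase, at -0.23.

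Of the 25 other genes with TOP mRNAs, 17 were below 0, 9 were lower and 0 higher, with a median of -0.11, and 4 were lower without that run. The 9 lower over all libraries include Ssr2, a subunit of the translocon-associated complex (-0.28), Eif3k (-0.24), Eef1b2, a nucleotide exchange factor for elongation (-0.19), and Tpt1 (-0.19). Eef1a1, which delivers aminoacyl-tRNA and is the most abundant of those named, was at 600 to 735 CPM in controls and 638 to 745 CPM in knockouts (0.017, SE 0.053), and its paralog of mature neurons, Eef1a2, was at -0.041. Eef2, the translocase, was at -0.008 (SE 0.039). Of 7 genes related to ribosomal proteins, of which Rps4l is also among the 80, 6 were below 0, with 2 lower, 1 higher and a median of -0.16. Rack1, a signalling scaffold of the small subunit, was lower (-0.16, SE 0.061), and Rpl7l1, a nucleolar paralog of Rpl7, was higher (0.13, SE 0.060). Fau, which encodes a ribosomal protein fused to a ubiquitin-like protein, did not reach that level (-0.16, SE 0.10). Rpl22l1, the paralog of Rpl22, was at -0.099.

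Genes that build or regulate ribosomes had estimates on both sides of 0. Of 76 assembly factors, 28 were below 0 (background 51.3%), with 2 lower (background 7.25%), 7 higher (background 5.23%) and a median of 0.030. One of the higher was Nol11, of the small-subunit processome, at 0.17. The median transcript of the assembly factors has 2682 bases. All genes in the length class of 2283 to 3150 bases had a median of 0.027, with 40.4% below 0 and 292 of 3455 higher. Without the run 3296 to 3300, 4 assembly factors were lower and 4 higher (background 5.23% and 4.59%). RNA polymerase I transcription had 13 of 20 below 0, 4 lower and 3 higher, and 2 lower and 0 higher without that run. Of 39 initiation factors, 21 were below 0, with 9 lower and 1 higher (6 and 0 without that run), and of 15 elongation and termination factors 6 were below 0, with 2 lower and 0 higher. Genes of mTORC1 and the control of ribosomal protein expression had 15 of 30 below 0, 1 lower and 2 higher. Mtor was at -0.072, Rps6kb1, the S6 kinase, at 0.035, Larp1 at 0.10, Eif4ebp1 at -0.31 and Eif4ebp2 at 0.14, none with an unadjusted edgeR p under 0.05. Ribosome quality control and stress sensing had 7 of 26 below 0, 0 lower and 3 higher, Mdm2 being among the higher at 0.15 (SE 0.060). The median transcript of that list has 3208 bases, and 39.8% of all genes in the class of 3150 to 4518 bases were below 0.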

How the data were processed

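Whole-number read counts per gene for 13 hippocampus libraries, not normalized, were taken as deposited by the authors. Per the submitters' processing notes the build was GRCm39 and the tools were DESeq2 1.36.0, R 4.2.0, featureCounts 2.0.3 and STAR 2.7.10a, with no role stated. How multimapped reads, strand and overlapping features were handled, and with which annotation, is not given in the sources used here, so paralogs, pseudogenes and overlapping genes are uncertain. The labels' protocols give total RNA and the SMART-Seq mRNA LP kit. Symbols, lengths and chromosomes came from GENCODE M21 (GRCm38), so no coordinates from it are given. The length is that of the shortest principal transcript. Where a gene has none, it is that of the longest protein-coding transcript, or else of the longest. Levels per kb of coding sequence used the coding length of that transcript. The removal of length trends used the length of all exons of a gene combined.

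Counts of 17549 genes passing filterByExpr were fitted with edgeR 4.0.16 in R 4.3.3 (TMM factors, quasi-likelihood test, no covariates) and adjusted by Benjamini-Hochberg over all of them; all 80 ribosomal protein genes passed. Single genes also had an exact two-sided permutation test over 1716 splits of log2(CPM + 0.5), whose smallest p is 0.000583. CPM use TMM factors, except those of the summed cell markers, which were scaled by library total alone. Alternatives were DESeq2 1.42.0, limma-voom (limma 3.58.1), other factors and filters, the run of sample numbers as a term, omitted runs and libraries, and trends on length and GC content removed (lowess span 0.4). Leaving out the runs 3283 to 3288 and 3296 to 3300 was chosen after seeing the data.

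The members and all lists were chosen with earlier results of these data known. Named members are the 12 with the smallest p, the 5 most positive, the 5 highest and 5 lowest levels, the 3 largest SDs and 17 set by function; other lists give up to 3 genes by p and 14 set by function. Other genes named within a role were chosen after their values were seen. Some genes of these lists are not reported here.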

Additional observations from a re-analysis of the deposited data

Results flagged for a closer look

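In 90 checks of a group for a library far from the others, 10 stood out, against about 1 in 20 expected by chance, and all 10 were high values of knockout replicate 4, the deepest library. Its summed ribosomal protein level was 3112 CPM, with the next knockout at 2728 CPM, and its 40S sum was 1221 CPM. Its ribosomal protein share of counts was 0.307%, and its median log2 difference from the control mean was 0.105, with the next knockout at -0.175. The single genes were Rpl26 at 36.7 CPM, Rpl13 at 95.0, Rplp1 at 36.4, Rps29 at 20.8, Rps21 at 18.9 (the next knockout was at 14.3) and Rps18 at 31.1 CPM. These values share 1 library and are not independent. Without it, all 80 genes were below 0 (background 51.0%). At an unadjusted p under 0.05, 50 were lower (background 7.24%), and the smallest adjusted p was 0.0964 by edgeR's quasi-likelihood test.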

How the results depend on the processing

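No ribosomal protein gene passed an adjusted p of 0.05 in any of the 25 alternatives, the smallest being 0.0528 by DESeq2. The count lower at an unadjusted p under 0.05 (29, background 7.25%) was 16 with the run as a term (background 4.54%). It was 52 without samples 4301 to 4307 (background 7.37%), 16 without samples 3283 to 3288 (5.29%) and 6 without samples 3296 to 3300 (5.23%). With length and GC trends removed it was 12 (background 5.7%), and the cause was not tested. Without samples 3296 to 3300, 2 genes were higher (background 4.59%) and the median was -0.007. Leaving out each library in turn gave 8 to 50 lower genes (background 5.68% and 7.24%), 0 higher and 0 called. The median was then -0.225 to -0.123 and the difference in summed level -13.43% to -8.53%. That difference (-11.0%) was -3.94% without samples 3296 to 3300.

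Of 922 estimates for the 37 named members, 36 changed sign. Without samples 3296 to 3300 these were Rpl10 at 0.014, Rps14 at 0.066, Rps20 at 0.013, Rpl39 at 0.066, Rplp1 at 0.122, Rplp2 at 0.045, Rps29 at 0.142, Rps28 at 0.167, Rpl13a at 0.024, Rps27 at 0.116, Rps21 at 0.307, Rps12 at 0.187, Rpl35a at 0.203, Rps18 at 0.176 and Rpl22 at -0.044. Without samples 3283 to 3288 they were Rpl3 at 0.017, Rpl4 at 0.007 and Rps26 at -0.178, and without samples 4301 to 4307 Rps26 at -0.136. With the run as a term they were Rpl4 at 0.007 and Rpl22 at -0.005. With length and GC trends removed they were Rps27 at 0.019, Rps21 at 0.005, Rps12 at 0.005 and Rps18 at 0.015. Over the single libraries left out, Rps12 ran from -0.133 to 0.029, Rpl35a from -0.101 to 0.020, Rps18 from -0.075 to 0.037, Rpl22 from -0.014 to 0.033 and Rps26 from -0.064 to 0.113. The ratio of the highest to the lowest level was 257.3 without division by length and 253.6 per coding length. No paired analysis was possible because the groups share no number in the labels. Depth limits Rpl24, Rpl37rt and Rps10, with mean counts of 13.8, 11.8 and 24.7.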
